A study of Arabidopsis thaliana with 4 samples.

Results

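The nuclei described here were chosen because loci of cortex marker genes held many ATAC cut sites, and are called marker-open nuclei after that rule. They came from root tips of Arabidopsis thaliana Col-0 cut at 5 mm and read with a droplet assay that gives open chromatin (ATAC) and RNA from 1 nucleus at a time, and each library was loaded with 15000 nuclei. All plants were of this 1 genotype, and the labels call the untreated ones WT. There were 2 libraries of plants on control medium (control 1 and 2) and 2 of plants under osmotic stress (stress 1 and 2), for which sorbitol had been added to the medium. The labels give separate replicates but do not say what separates them, so p-values refer to these libraries alone. For stress against control they measure the spread between libraries. For marker-open against other nuclei they measure how the difference within a library varied from library to library. A barcode counted as a nucleus with 3000 to 100000 ATAC counts and 1000 to 25000 RNA counts. The score of a nucleus was the share of its ATAC counts in peaks over the body or the 2 kb upstream of 10 marker genes, and the top 5% of each library were taken. This gave 1446 marker-open nuclei of 28869, with 212 of 4229 in control 1, 383 of 7628 in control 2, 431 of 8613 in stress 1 and 420 of 8399 in stress 2. The number chosen is fixed by the rule and is no measure of abundance.

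The cortex is the layer of large ground tissue cells between the epidermis and the endodermis of the root. It arises together with the endodermis from a shared initial cell, whose division depends on the transcription factors SHORT-ROOT and SCARECROW. A transposase cuts DNA that is not covered by nucleosomes, most often near the start of a gene, so the number of cut sites in a peak measures how open the region is. A single nucleus has few cut sites at any 1 locus, and an open locus need not be transcribed.

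Of the 10 markers, 8 had a peak over their window in at least 1 library, and AT1G62500 and AT3G21670 had none. The windows held 15 merged regions, 11 of them on chromosome 5. The markers with peaks were AT1G62510 (an extensin-like protein), AT1G09750 (an aspartyl protease family protein), CYP71B34 (a cytochrome P450, AT3G26300), IAMT1 (which methylates the auxin indole-3-acetic acid, AT5G55250), C/VIF2 (an inhibitor of sugar-cleaving invertases, AT5G64620), AT5G18840 (a transporter of the major facilitator superfamily), IREG2 (a metal transporter of the ferroportin family, AT5G03570) and CYP708A2 (a cytochrome P450 that hydroxylates the triterpene thalianol, AT5G48000). AT1G62510 had no peak in stress 2, and IAMT1 had peaks in control 2 and stress 1 alone. Counts of 0 for these loci in the other libraries come from the missing peak.

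Many marker regions lay nearer to the start of another gene. Both regions of C/VIF2 (chr5:25830122-25831064 and chr5:25832521-25833412 on TAIR10) covered the starts of its neighbours HAM1 (AT5G64610) and FAS2 (AT5G64630). One region of AT5G18840 (chr5:6286321-6287142) covered the start of AT5G18850, and one of IREG2 (chr5:902591-903179) that of AT5G03560. With a region in the body of IAMT1 that was nearest to ATPXG2 (AT5G55240), 5 of the 15 regions belonged to a neighbour by this measure. They held 42.4%, 46.0%, 44.8% and 44.7% of the marker cut sites of marker-open nuclei in control 1, control 2, stress 1 and stress 2, against 43.2%, 44.4%, 45.2% and 44.8% in the other nuclei. The neighbours thus gave a large part of the score in both pools.

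Of the 8 markers, 3 had a region over their own start in all 4 libraries, namely CYP71B34, AT5G18840 and IREG2. The bases before the start of the last 2 are shown because they are the DNA that the score reads at these loci, beside those of AT1G09750, whose start held no peak. Sequences are from RefSeq TAIR10.1, 200 bases 5′ to 3′ on the strand of the gene (plus for all 3), ending 1 base before the annotated start. Capitals mark matches on either strand to the motif ACGTG, the motif TATAAA or the motif TTGAC.
AT5G18840, chr5:6282681-6282880: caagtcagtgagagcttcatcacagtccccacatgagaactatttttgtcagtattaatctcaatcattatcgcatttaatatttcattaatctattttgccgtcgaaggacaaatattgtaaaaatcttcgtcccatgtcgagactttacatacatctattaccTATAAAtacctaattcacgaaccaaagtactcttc
IREG2, chr5:903270-903469: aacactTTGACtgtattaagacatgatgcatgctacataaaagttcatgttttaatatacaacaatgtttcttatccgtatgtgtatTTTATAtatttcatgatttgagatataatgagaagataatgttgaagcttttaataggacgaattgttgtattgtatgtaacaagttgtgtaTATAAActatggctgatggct
AT1G09750, chr1:3157301-3157500: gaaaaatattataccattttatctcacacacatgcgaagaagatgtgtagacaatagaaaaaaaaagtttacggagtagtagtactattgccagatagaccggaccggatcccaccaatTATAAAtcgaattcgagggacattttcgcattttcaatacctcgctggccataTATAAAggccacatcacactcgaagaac
TATAAA, the core of the TATA box, began 35 bases before the start of AT5G18840, 21 before that of IREG2 and 28 before that of AT1G09750, and stood in 41.0% of 27443 such windows of protein-coding genes. TTGAC, the core that WRKY factors bind, was found at IREG2 and in 38.7% of all windows. ACGTG, the core of elements that answer abscisic acid, was in none of the 3 and in 19.8% of all windows.

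Marker-open nuclei carried few marker cut sites each. The median was 7 in control 1, control 2 and stress 1 and 6 in stress 2, with a lowest value of 4 in every library and a highest of 19 to 27. Other nuclei had a median of 3 in control 1 and 2 elsewhere, and 19.6% (control 1) to 28.5% (stress 2) of them had none. The score at the limit lay between 0.117% (stress 2) and 0.128% (stress 1) of a nucleus's ATAC counts, and the highest score outside it between 0.116% and 0.127% in the same libraries. No gap separated the chosen nuclei from the rest. A marker-open nucleus had cut sites at 3 markers (median in every library), and between 3.02% and 5.71% of them had cut sites at 1 marker alone.

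**Figure D1:**
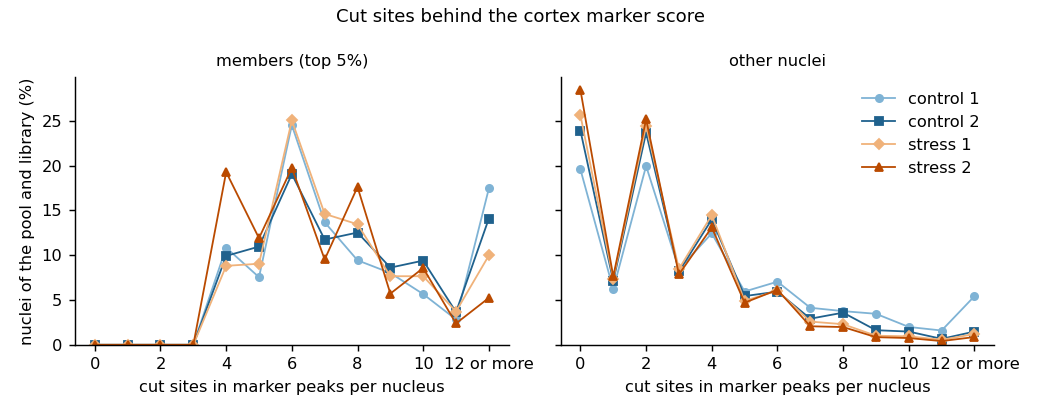
Percentage of the nuclei of each pool and library (y axis) by the number of cut sites in marker peaks (x axis, the last point is 12 or more), for marker-open nuclei (left) and other nuclei (right), 1 line per library. Marker-open nuclei start at 4 cut sites by the rule, and some of the other nuclei have as many, since the score is a share of all ATAC counts of a nucleus.

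C/VIF2 gave the most marker cut sites of marker-open nuclei, 22.9%, 24.2%, 21.4% and 26.1% in control 1, control 2, stress 1 and stress 2. IREG2 came next with 17.0%, 16.5%, 19.2% and 20.5%. The least even marker was AT1G09750, with 15.0% and 11.8% in the control libraries, 6.07% in stress 1, where 1 of its 2 regions had no peak, and 16.9% in stress 2. Since these loci chose the nuclei, their levels are a description. C/VIF2 stood at 340, 372, 334 and 369 CPM (ATAC counts scaled by the total of the pool) in marker-open nuclei and at 112, 98.6, 101 and 99.8 in the other nuclei. Every marker with a peak was higher in the marker-open nuclei of every library, which the rule favours, since each adds to the score.

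Whether the markers were open in the same nuclei was tested by leaving out each of the 8 markers in turn. Nuclei were then chosen by the other markers, and the left-out locus was compared between chosen and other nuclei, with counts summed per library and the library as a block. No left-out marker passed an adjusted p of 0.05 (edgeR quasi-likelihood test, Benjamini-Hochberg), in fits in which 0% (IAMT1, C/VIF2, AT5G18840 and IREG2), 0.00545% (AT1G09750 and CYP71B34), 0.0109% (AT1G62510) or 0.0218% (CYP708A2) of 18332 features did. At an unadjusted p of 0.05 there were also 0 of 8. AT5G18840 had the highest changes among markers with peaks in all libraries, at 86.9, 84.6, 84.4 and 79.9 CPM after TMM scaling in nuclei chosen by the others and 74.1, 69.7, 79.3 and 77.9 in the rest. It was higher in 4 of 4 libraries, with a log2 change of 0.15 ± 0.09 (SE, adjusted p = 0.738).

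C/VIF2, the marker with the most counts, stood at 114, 154, 136 and 117 CPM in nuclei chosen by the other markers and at 126, 130.5, 133 and 135 in the rest. It was higher in control 2 and stress 1 and lower in control 1 and stress 2. Its log2 change was -0.013 ± 0.084 (95% interval -0.18 to 0.15, upper end 1.11-fold). The log2 ratios of the single libraries were -0.14, 0.24, 0.025 and -0.21. The intervals of these fits draw on the spread of all features. They can be narrower than the 4 libraries alone would give, so they set no firm bound. CYP708A2 had the lowest change, at 31.7, 57.3, 66.3 and 44.5 CPM against 53.5, 54.1, 65.8 and 58.1, a log2 change of -0.20 ± 0.12 (adjusted p = 0.596). The 8 changes ran from -0.20 (CYP708A2) to 0.17 (IAMT1), and the upper ends of their intervals from 1.02-fold (CYP708A2) to 1.44-fold (IAMT1). When nuclei were chosen within bins of like depth, 0 of 8 passed as well, CYP708A2 turned to 0.033 ± 0.094 (upper end 1.16-fold, adjusted p = 0.974), and AT1G62510 went from 0.060 ± 0.164 to 0.24 ± 0.14 (upper end 1.43-fold, adjusted p = 0.734).

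**Figure D2:**
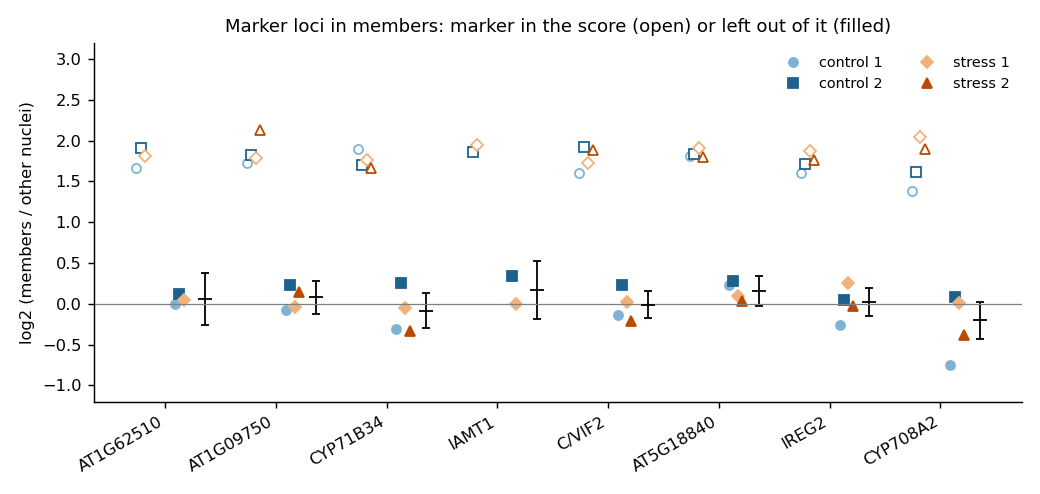
Log2 ratio of each marker locus between chosen and other nuclei (y axis) for the 8 markers with peaks (x axis). Open symbols are libraries with the marker in the score, filled symbols are libraries with the marker left out of it, and the bar is the fitted log2 change of the left-out marker with its 95% interval. Left-out markers lie around 0, between -0.20 and 0.17 in the fits.

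The left-out markers thus give no support of their own for the cortex name, and the nuclei are called by their rule. A list of 17 further cortex markers of the study, which the score did not use, is no independent evidence where the study picked it from these libraries. Of these, 13 could be tested, 3 were higher and 10 lower in marker-open nuclei, and 0 passed the test. Their median log2 change was -0.033, beside -0.0016 over all 23636 genes tested. The median changed sign to 0.013 without control 1, 0.0028 when nuclei were chosen within bins of like depth and 0.0058 with 1000 ATAC counts as the lower limit. TBL41, a homolog of wall acetylation proteins, had the highest value at 0.17 ± 0.09 (adjusted p = 0.641), and CALS1, a callose synthase, the lowest at -0.095 ± 0.078 (adjusted p = 0.805).

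Marker-open nuclei were shallower than the others. Their median ATAC counts were 4693, 4595, 4369 and 4254.5 in control 1, control 2, stress 1 and stress 2, against 6990, 5725, 5566.5 and 5680 in the other nuclei. They were lower in 4 of 4 libraries, at 0.671 to 0.803 of the median of the other nuclei. The mean difference was -1512.5 counts ± 538 (SD, n = 4 libraries). ATAC counts are the denominator of the score, so this difference is a description of what the rule chose and has no test. The 10% of nuclei with the fewest ATAC counts held 9.86% (stress 1) to 11.9% (stress 2) marker-open nuclei, and the 10% with the most held 0.474% (control 1) to 1.05% (stress 1). RNA counts did not enter the score, though both counts come from the same nuclei, and were lower too, with medians of 4032.5, 3704, 3918 and 3820 against 5063, 4428, 4614.5 and 4625. The mean difference was -814 ± 152 (SD, n = 4 libraries, exact sign-flip permutation test, two-sided, p = 0.13), and 0.13 is the smallest p that 4 libraries can give.

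**Figure D3:**
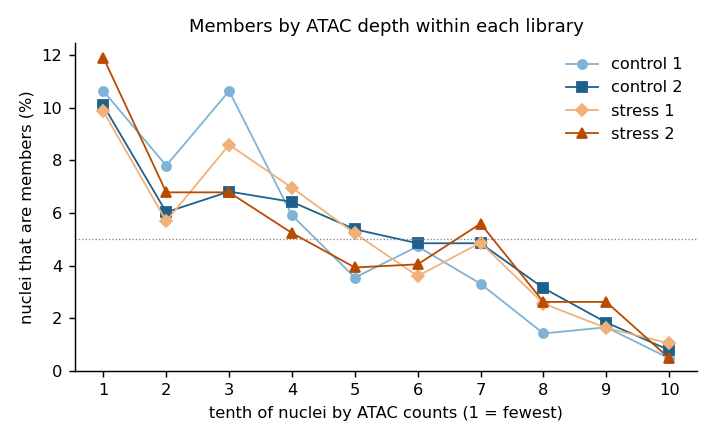
Percentage of nuclei that are marker-open (y axis) in each 10% of the nuclei of a library ranked by ATAC counts (x axis, 1 is the 10% with the fewest), 1 line per library. The dotted line is the 5% chosen overall. The share was 9.86% to 11.9% in the shallowest 10% and 0.474% to 1.05% in the deepest.

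The nuclei chosen by cortex markers overlapped in part with nuclei chosen the same way by markers of other layers. Of marker-open nuclei, 6.53% to 7.62% were also in the top 5% for endodermis markers, 5.74% to 7.55% in that for trichoblast (root hair cell) markers and 5.22% to 5.80% in that for meristem markers. Of the other nuclei, 4.86% to 4.93%, 4.88% to 4.97% and 4.96% to 5.00% were. The overlap with all 3 sets was higher among marker-open nuclei in 4 of 4 libraries. Depth was lower in marker-open nuclei, and its part in this overlap was not tested. Between 57 and 118 barcodes were shared by any 2 libraries, and at most 1 of these was marker-open in both.

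Marker-open nuclei were then compared with the other nuclei over regions outside the marker windows, which the score did not use. The sums of marker-open nuclei held 1163923 to 2107273 ATAC counts per library, with a median of 55 to 87 counts per region, and those of the other nuclei 34832270 to 52600935. Of 18331 regions with a peak in all libraries, 0 passed an adjusted p of 0.05 (0%, edgeR), with 1364 at an unadjusted p under 0.05, and DESeq2 also gave 0 with 811 at an unadjusted p under 0.05. The changes were small. There were 7 regions with a change above 1.5-fold, and the median size of a log2 change was 0.089 with a median SE of 0.12.

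The regions with the lowest p are given as values. A region in the body of AT5G42610, which codes for a protein of the calcium uniporter family (chr5:17063462-17064342), stood at 45.6, 47.0, 34.7 and 38.4 CPM in marker-open nuclei against 29.9, 25.4, 25.3 and 24.8 in the other nuclei. It was higher in 4 of 4 libraries, with a log2 change of 0.65 ± 0.14 (adjusted p = 0.155, edgeR). A region in the body of AT5G41390, a PLAC8 family gene (chr5:16566868-16567778), had a change of 0.54 ± 0.14, and one at the start of DECOY (chr1:5016772-5017586) a change of 0.39 ± 0.10 (adjusted p = 0.316 for both). Both were higher in 4 of 4 libraries.

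Lower in 4 of 4 libraries were a region at the start of CRF10, a gene of the ERF transcription factor family (chr1:25727683-25728410), with -0.60 ± 0.14 (adjusted p = 0.262), and one at the start of AT4G11860 (chr4:7139139-7139969), with -0.47 ± 0.11 (adjusted p = 0.155). CRF10 stood at 18.2, 29.3, 30.0 and 35.5 CPM in marker-open nuclei against 44.5, 45.1, 41.5 and 43.3 in the other nuclei. Its lowest value was in control 1. A region on chromosome 1 with no gene over it (chr1:10232532-10234161) had a change of -0.50 ± 0.11 (adjusted p = 0.155).

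Gene accessibility, the sum of such regions over the body and 2 kb upstream of a gene, gave 1 called gene of 23636 (0.00423%). This was AT5G01300, which codes for a protein of the phosphatidylethanolamine-binding family. It stood at 87.1, 76.8, 79.6 and 72.2 CPM in marker-open nuclei against 61.7, 60.8, 61.8 and 62.2 in the other nuclei, a rise of 0.35 ± 0.07 (adjusted p = 0.0491, edgeR) that was seen in 4 of 4 libraries. The call was lost with DESeq2, with library totals in place of TMM, without any 1 library and with organelle-like regions left out, which all gave 0 called genes, and 16 genes passed with the top 10% of scores (0.0677%), 154 within depth bins of 10% of the nuclei (0.652%) and 475 with 1000 ATAC counts as the lower limit (2.01%).

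The number of called regions depended on which nuclei were chosen. With the top 10% of scores, 10 of 18331 regions passed (0.0546%), with 5 rises and 5 falls. All 5 rises were on chromosome 5, which held 23.5% of all tested regions. Among them was a region at the start of RPL, a homeobox gene, with 0.51 ± 0.11 (adjusted p = 0.0148). Another lay at the start of HCA2, a Dof factor gene of the vascular tissue, with 0.30 ± 0.07 (adjusted p = 0.0492). When the top 5% were taken within each depth bin (10% of the nuclei of a library, ranked by ATAC counts), so that chosen and other nuclei had like depth, 106 passed (0.578%), with 7 rises and 99 falls. Of the 99 falls, 86 lay in regions whose sequence is close to mitochondrial or plastid DNA, which made up 0.649% of all tested regions. With 1000 ATAC counts as the lower limit, 327 passed (1.78%), and 107 of the 212 rises were organelle-like. The choices shared part of their nuclei. Between 71.7% and 81.7% of marker-open nuclei were also chosen within depth bins, and 38.7% to 48.6% with the lower limit.

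Organelle-like regions lie mainly in a copy of the mitochondrial genome on chromosome 2, where reads of the organelle and of the nucleus cannot be told apart. They held 3.85%, 2.00%, 1.57% and 1.85% of the counts of marker-open nuclei outside marker windows. The log2 ratio to the other nuclei was 0.051, 0.028, -0.18 and 0.078 with the main choice, and -0.39, -0.19, -0.43 and -0.23 with the choice within depth bins. With organelle-like regions left out of the score it was 0.80, 0.36, 0.085 and 0.31, higher in 4 of 4 libraries. Their counts enter the denominator of the score in the other choices. With these regions left out of score and test, 0 of 18212 regions passed (1564 at an unadjusted p under 0.05), and 88.7% to 96.4% of marker-open nuclei were kept.

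Chromosome 5, which carried 11 of the 15 marker regions, held a larger share of counts in marker-open nuclei also outside the marker windows. The shares, with organelle-like regions left out, were 24.9%, 25.2%, 24.0% and 24.6% in control 1, control 2, stress 1 and stress 2. The log2 ratios to the other nuclei were 0.075, 0.099, 0.030 and 0.065, higher in 4 of 4 libraries. Chromosome 3, with 1 marker region, was lower in 4 of 4 libraries (-0.024, -0.036, -0.026 and -0.023). Regions within 100 kb of a marker window had ratios of 0.033, 0.077, 0.0059 and 0.046. The windows lie on chromosomes 1, 3 and 5, so this set cannot be set directly against chromosome 5 alone. What raised chromosome 5 was not tested.

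**Figure D4:**
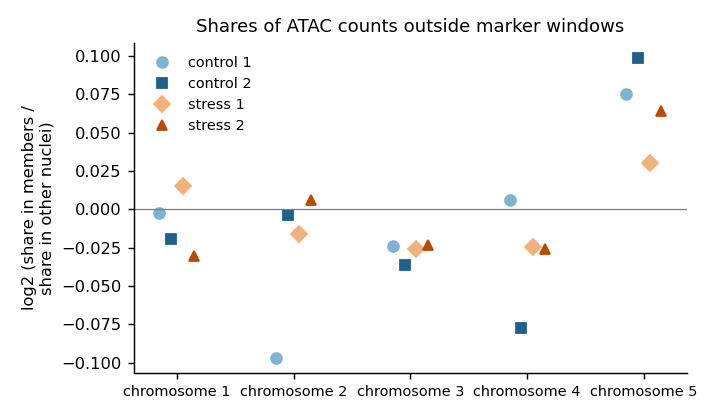
Log2 ratio of the share of ATAC counts on each chromosome between marker-open and other nuclei (y axis), with marker windows and organelle-like regions left out, 1 symbol per library. Chromosome 5 lies between 0.030 and 0.099, above 0 in every library.

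Gene lists for the other layers of the root gave no second name to the marker-open nuclei. Over 14 lists, 131 genes could be tested, 66 were higher and 65 lower in marker-open nuclei, and 0 passed the test (beside 0.00423% of all genes). The endodermis list had a median of 0.033 (7 of 11 higher and 4 lower, down to -0.098 at AT4G02090). MYB36, the regulator of the Casparian strip, was at 0.25 ± 0.09 (adjusted p = 0.401). CASP4, a protein of that strip, was at 0.11 ± 0.07 (adjusted p = 0.752). Both were lower in control 1 (log2 ratios -0.13 and -0.082). Trichoblast genes had a median of -0.0075 (5 of 12 higher), meristem and dividing cell genes of -0.013 (3 of 8), root cap genes of -0.030 (3 of 8), and stele and pericycle genes of 0.00029 (4 of 7). The 4 genes tested of the thalianol and marneral clusters, to the first of which CYP708A2 belongs, had a median of -0.026. They ran from -0.19 to 0.21, with the thalianol synthase gene THAS1 at 0.21 ± 0.14 (adjusted p = 0.736).

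Phloem genes had a median of 0.18 (library medians 0.35, 0.31, 0.19 and -0.051), with 6 of 6 tested genes higher and 0 called. This was the list median farthest from 0, but it fell to 0.065 within depth bins, where stele and pericycle genes had -0.066, to 0.076 with the top 10% of scores, where ground tissue regulators had 0.091, and to 0.11 without control 1, where xylem genes had 0.13. Of the 14 list medians, 12 changed sign under at least 1 alternative, all but those of phloem and xylem. HCA2 was at 69.8, 75.2, 64.9 and 52.8 CPM in marker-open nuclei against 54.7, 53.3, 52.6 and 53.2, a change of 0.29 ± 0.08 (adjusted p = 0.192), and CalS7, the callose synthase of sieve plates, at 0.20 ± 0.07 (adjusted p = 0.418). Stress 2 did not share the difference at HCA2. Xylem genes had a median of 0.061 (5 of 6 higher), with IRX6, a gene of the secondary wall, at 0.31 ± 0.11 (adjusted p = 0.404). XCP2 and MYB83, the xylem genes with the highest levels, were at 0.0055 ± 0.0683 and -0.027 ± 0.094. Among regulators of ground tissue, the median was 0.039 (4 of 6 higher, the lowest at -0.20). SCARECROW (SCR) was at 0.011 ± 0.122 and HSFB4, which is needed for divisions in the ground tissue, at 0.46 ± 0.16 (adjusted p = 0.371).

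**Figure D5:**
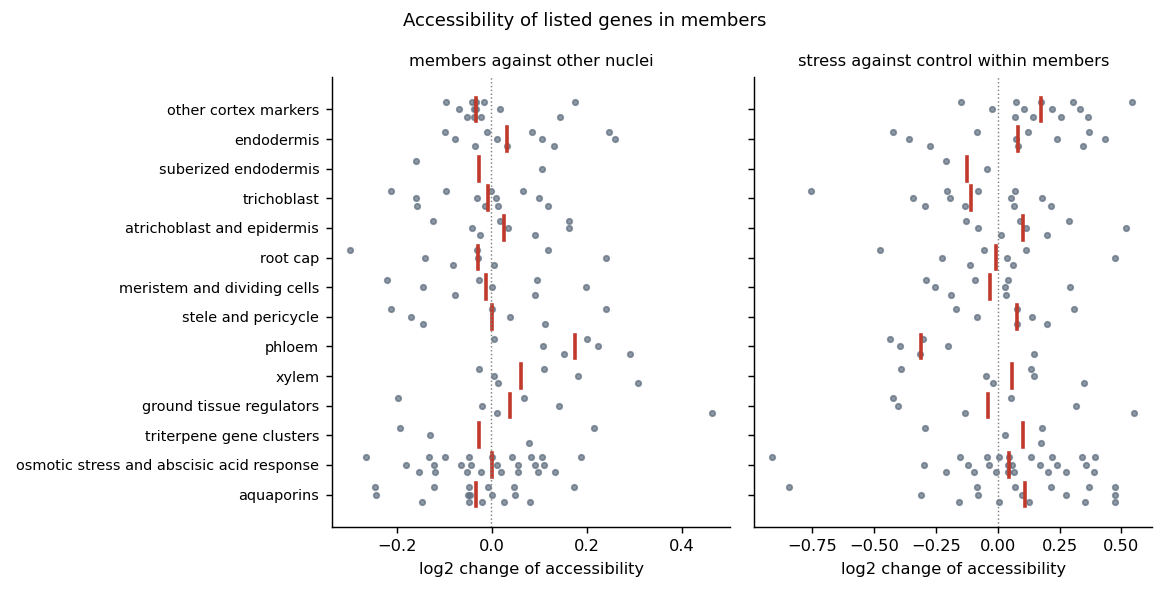
Log2 change of gene accessibility (x axis) of the tested genes of each list (y axis), for marker-open against other nuclei (left) and stress against control within marker-open nuclei (right). Points are genes, red bars are list medians and the dotted line is the median of all genes. The phloem bars lie at 0.18 and -0.31 with the main choice of nuclei, and at 0.065 and -0.069 when nuclei are chosen within depth bins, which is not drawn.

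RNA of the same nuclei did not enter the score. The RNA rows of the matrices carry no gene names here, so they are described by number alone. Of 19674 rows tested, 21 passed (0.107%, edgeR), with 11 higher and 10 lower in marker-open nuclei. The rises had a median log2 change of 0.47 and reached 1.10, and the falls had a median of -0.70 and reached -2.03. Over all rows the median size of a change was 0.11. DESeq2 called 8 rows, 7 of them among the 21. The number was 1 without control 2 and 5 without stress 1, and 0 when organelle-like regions were left out of the score. It was 335 (1.70%, 231 higher and 104 lower) when nuclei were chosen within depth bins, 12 of them among the 21, 50 (0.252%) with the top 10% of scores and 775 (3.85%) with 1000 ATAC counts as the lower limit. Fewer cells of a type and less RNA per cell cannot be told apart in such sums.

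Osmotic stress was then compared with control within marker-open nuclei. Of 18330 regions, 0 passed (0%, edgeR, 1591 at an unadjusted p under 0.05), and DESeq2 gave 0 with 443 at an unadjusted p under 0.05. The estimates were less precise, with a median SE of 0.23 on the log2 scale against 0.12 in the comparison with the other nuclei. That comparison sets 2 pools side by side within each of 4 libraries. The biological coefficient of variation was 0.126 under stress and 0.079 between pools. A region upstream of AUF2, an auxin-responsive F-box gene (chr1:7844608-7845451), stood at 15.5 and 39.7 CPM in the control libraries and 73.9 and 79.3 under stress, a log2 change of 1.39 ± 0.27 (adjusted p = 0.170). One upstream of HA1, a plasma membrane proton pump gene (chr2:8219565-8220503), stood at 23.7 and 25.1 against 55.5 and 61.5 (1.26 ± 0.26, adjusted p = 0.170). At the start of LRR XI-23, a receptor kinase gene (chr1:3251354-3252413), the values were 41.0 and 47.7 against 79.7 and 119 (1.16 ± 0.22, adjusted p = 0.170). The groups did not overlap at these 3 regions, but they were picked for their low p, so this adds no support. How many of all regions were so separated was not counted.

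The lowest p among falls belonged to a region on chromosome 3 with no gene over it (chr3:13591459-13592466), at 105 and 56.2 CPM in control and 26.6 and 26.6 under stress (-1.56 ± 0.27, adjusted p = 0.114). A region at AT2G07715 (chr2:3410637-3411536), which is organelle-like, stood at 208 and 121 against 58.9 and 84.6 (-1.17 ± 0.24, adjusted p = 0.170), and one at the start of AT2G00340 (chr2:9558-10477) at 182 and 130.1 against 70.5 and 78.1 (-1.06 ± 0.21, adjusted p = 0.170). Control 1 had the highest value at all 3. Without control 2, 228 regions passed (68 rises and 160 falls), without stress 1 there were 4, without stress 2 there was 1, and without control 1 there were 0. With the top 10% of scores, 187 regions passed (1.02%, 87 rises and 100 falls), 61 of the falls organelle-like. With 1000 ATAC counts as the lower limit, 1 passed (0.00546%), and within depth bins 38 did (0.207%).

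No gene of the lists passed under stress in marker-open nuclei either (0 of 131, beside 0% of 23636 genes, 2022 at an unadjusted p under 0.05 with edgeR, and 0 and 526 with DESeq2). Over all genes, 345 passed without control 2, 15 without stress 2, 7 without control 1 and 0 without stress 1. The further cortex markers had a median of 0.18 (11 of 13 higher, 0.12 without control 1). The lowest was PSAK at -0.15 ± 0.16 (adjusted p = 0.852). The highest was SFP1, a sugar transporter-like gene, at 0.54 ± 0.20 (adjusted p = 0.487). SFP1 stood at 39.9 and 34.9 CPM in control 1 and 2, 42.7 in stress 1 and 65.3 in stress 2. The median over all genes was -0.00018. Genes of the response to osmotic stress and abscisic acid, the hormone of water deficit, had a median of 0.047 (16 of 25 higher), which ran from 0.017 to 0.086 over the alternatives. P5CS1, the key enzyme of proline synthesis, was at 0.39 ± 0.21 (adjusted p = 0.623), the protective protein gene COR47 at 0.34 ± 0.15 (adjusted p = 0.553), the phosphatase gene ABI1 at 0.059 ± 0.190 and the NAC factor gene RD26 at -0.91 ± 0.24 (adjusted p = 0.354). Aquaporin genes had a median of 0.11 (11 of 16 higher, 0.28 without control 2 and 0.067 with halved cut sites). The other 5 were lower, down to -0.84, a larger change than any rise in this list. PIP1A was at 0.35 ± 0.17 (adjusted p = 0.581). PIP2B and RD28 are neighbours that share their regions and had 1 value, 0.47 ± 0.17 (adjusted p = 0.474). Phloem genes had the lowest median, -0.31 (1 of 6 higher). It was -0.069 within depth bins and -0.096 with the top 10% of scores, where meristem and dividing cell genes had a lower one (-0.17 in both), -0.18 with 1000 ATAC counts as the lower limit, -0.18 without stress 2, where suberized endodermis genes had -0.20, and -0.46 without stress 1. Under stress, 6 of the 14 list medians changed sign under at least 1 alternative.

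RNA rows passed the test under stress in these nuclei in large number. Of 15874 RNA rows tested within marker-open nuclei, 2208 passed (13.9%, edgeR), with 1178 rises and 1030 falls. Rises had a median log2 change of 1.34, and 871 of them were above 2-fold. Falls had a median of -1.03, and 556 were above 2-fold. DESeq2 called 1093 rows, 1080 of them among the 2208. The count was 8 without stress 1 and 9 without stress 2, where the spread came from the control libraries alone, and 4303 without control 1 and 4105 without control 2. The biological coefficient of variation was 0.152 with all libraries, 0.218 without either stress library and 0.0757 without either control library. With library totals in place of TMM the split was 1666 rises to 794 falls. With the top 10% of scores 3573 rows passed (20.2%), within depth bins 2519 (15.7%), and with 1000 ATAC counts as the lower limit 1983 (11.8%).

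Whether marker-open nuclei answered stress differently from the other nuclei was tested as the difference between the 2 stress effects. For regions 0 of 18331 passed (0%, edgeR, 906 at an unadjusted p under 0.05), and DESeq2 gave 0 with 291. The lowest p belonged to a region at the start of AT2G43460, a ribosomal protein gene (chr2:18047028-18047967), at 32.8 and 48.9 CPM in control and 71.6 and 87.5 under stress in marker-open nuclei, while the other nuclei stayed between 67.6 and 72.6. The difference was 0.98 ± 0.22 (adjusted p = 0.762). AUF2 and LOL1, a zinc finger gene linked to cell death control, had differences of 1.02 ± 0.25 and 1.43 ± 0.36, and ALA3, RLP53 and VAR1 had -0.72 ± 0.19, -0.80 ± 0.21 and -0.78 ± 0.22 (adjusted p = 0.989 for all 5). For RNA, 8 of 20435 rows passed (0.0391%), with 6 higher and 2 lower differences, against 1 with DESeq2 and 23, 111, 25 and 16 without control 1, control 2, stress 1 and stress 2. The RNA changes within marker-open nuclei are therefore not shown to be particular to them.

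The marker loci themselves were compared between stress and control over all nuclei within the limits, a comparison that the choice of nuclei does not touch. Of genes tested with their marker windows included, 329 of 23645 passed (1.39%, edgeR). Among the 6 markers with a region in every library, 0 passed. CYP708A2 stood at 16.3 and 17.5 CPM in control and 20.9 and 20.02 under stress, a log2 change of 0.27 ± 0.08 (95% interval 0.095 to 0.45, adjusted p = 0.104), and IREG2 at 49.2 and 53.6 against 58.4 and 60.8 (0.21 ± 0.05, adjusted p = 0.0938). The groups did not overlap at either, nor at AT5G18840, C/VIF2 and CYP71B34. How many of all genes were so separated was not counted, so the separation adds no support for a response of the markers. AT5G18840 was at 39.3 and 37.2 against 42.3 and 41.5 (0.13 ± 0.05, adjusted p = 0.184). C/VIF2 (0.074 ± 0.044), CYP71B34 (0.094 ± 0.053) and AT1G09750 (0.0016 ± 0.0877) had the smallest changes. IREG2 passed with DESeq2 (adjusted p = 0.0470) and CYP708A2 did not (0.0855). Whether these and other markers passed also changed with the library left out, which leaves 1 library in a group. The shares of all genes passing in those fits and with DESeq2 are not given here. These calls alone are thus no support for the markers.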

How the data were processed

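Nuclei were read with a 10x multiome assay. According to the labels, the authors used Cell Ranger ARC 2.0.2 with the TAIR10 genome, Signac 1.7.0 and Seurat 4.3.0. The deposited matrices hold unnormalized counts per barcode, ATAC cut sites in peaks called per library and RNA molecules per row. Between 73.7% and 75.9% of ATAC values above 0 were even, as both ends of a fragment are counted. Library totals were 47853119 to 75473335 ATAC counts over 19858 to 25001 peaks. Counting limits the precision at low values.

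Peaks overlapping by 1 base were merged over libraries into 27679 regions, 18340 of them present in all 4. Regions matching an organelle genome (blastn 2.17.0, 95% identity over 50% of the length) were called organelle-like. Counts were summed per library and pool and tested with edgeR 4.0.16 in R 4.3.3 (quasi-likelihood, TMM, filterByExpr, Benjamini-Hochberg over all features, adjusted p of 0.05), with the library as a block between pools. DESeq2 1.42.0, other scalings, filters, choices of nuclei and each library left out were alternatives. No doublet caller was run, and the 5% of nuclei with the most ATAC counts were left out as an alternative. The text names the 3 regions with the lowest p in each direction. Scripts were tested on simulated data. The members and lists were chosen with earlier results of these data known. The comparison of RNA stress effects between pools, the marker loci over all nuclei and the organelle-like alternative were added after seeing the data. RNA row names were not used here.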

Additional observations from a re-analysis of the deposited data

Results flagged for a closer look

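The stress effect on RNA differed between marker-open and other nuclei, by the test of the difference itself, at 8 of 20435 RNA rows (edgeR), 6 with a higher and 2 with a lower effect in marker-open nuclei. The count was 1 with DESeq2 and 16 to 111 with 1 library left out. The accessibility of the trichoblast list in marker-open over other nuclei had library medians of 0.028 and 0.025 (log2) in control 1 and 2 and of -0.028 and -0.017 in stress 1 and 2. The control and stress libraries lay on opposite sides of 0 with a gap between the group means of -0.049, and this difference was not tested. Left-out markers, shares of counts, list medians and the called gene were all searched for such a pattern. The trichoblast list alone showed it, and how often it arises by chance was not worked out.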

How the results depend on the processing

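Counts of calls moved with the choice of nuclei and with single libraries left out. With the top 10% of scores they were 10 regions, 16 genes and 50 RNA rows between pools, and 187 regions, 40 genes and 3573 RNA rows under stress. Within depth bins they were 106, 154 and 335 between pools and 38 regions and 40 genes under stress. With 1000 ATAC counts as the lower limit they were 327, 475 and 775 between pools, 1 region and 4 genes under stress, and 1 region for the difference of stress effects. DESeq2 gave 0 genes and 8 RNA rows between pools and 1093 RNA rows under stress. Library totals gave 0 genes between pools. Leaving out the deepest 5% of nuclei gave 0 genes between pools and 4 under stress. Without the filter on low counts, 103 RNA rows passed between pools. Halved cut sites gave 10 genes under stress. Leaving out organelle-like regions, chosen after seeing the data, gave 0 genes and 0 RNA rows between pools and 10 regions and 13 genes under stress. The RNA difference of stress effects gave 1 row with DESeq2, 46 without the filter, 2 with the top 10%, 3 within depth bins, 27 with the lower limit and 19 without organelle-like regions. With 1 library left out, the counts between pools were 0 to 0 genes and 1 to 30 RNA rows, those under stress 0 to 228 regions, 0 to 345 genes and 8 to 4303 RNA rows, and that of the RNA difference 16 to 111. A lone library in a group was then assumed to vary like the others. The replicate block gave 32 regions, 0 genes and 2739 RNA rows under stress. Replicate numbers did not pair the libraries, with a correlation of deviations of -0.015 over regions and 0.012 over RNA rows. The causes were not tested. There were 2 libraries per group and a median of 55 to 87 counts per region in marker-open nuclei. Changes the size of the median SE under stress, 0.23, were not detectable. Far larger ones did not pass either, such as 1.39 ± 0.27 upstream of AUF2 (adjusted p = 0.170, edgeR). The absence of called regions under stress therefore does not exclude moderate changes.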
